A study of Mus musculus with 16 samples.

Results

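Resident macrophages of fat carry a set of surface receptors with which they stay alive, take up debris and are recognised. The 9 receptor genes described here are Adgre1, Csf1r, Mrc1, Folr2, Mertk, Cd163, Lyve1, Marco and Timd4. They were chosen by name, with earlier results of these data known, from 17883 genes measured in mouse adipose tissue. All 9 were found in the deposited matrix. Libraries came from C57BL/6 mice aged 8 weeks, and every mouse carried METTL3 flox/flox, the floxed gene of the m6A methyltransferase. The group called cKO cold also carried Adipoq-Cre +/-, whose promoter is active in adipocytes and not in macrophages, and was housed singly for 7 days at 4 °C. The group called WT cold had no Cre and was housed in the same cold, and the group called WT RT had no Cre and was left untreated. Input RNA and the RNA fraction precipitated by an anti-N6-methyladenosine (m6A) antibody were sequenced from these 3 conditions, and ribosome footprints from cKO cold and WT cold, with 2 libraries in each of the 8 groups. The sources do not say that the libraries of a group came from separate mice, so the p-values cover no more than the spread from library to library. The fat depot is not named in the sample labels.

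Each of the 9 encodes a protein of the cell surface. Csf1r is the tyrosine kinase receptor for the growth factors Csf1 and Il34, on which most tissue macrophages depend for survival. Mertk and Timd4 take up dying cells: Timd4 binds phosphatidylserine on them directly, and Mertk binds it through the bridging proteins Gas6 and Pros1. Mrc1, Cd163 and Marco are scavenger receptors, for mannose-bearing glycoproteins, for complexes of haemoglobin with haptoglobin, and for bacteria and particles. Folr2 is folate receptor beta, Lyve1 binds hyaluronan and is also made by lymphatic endothelium, and Adgre1 encodes F4/80, the adhesion receptor that marks mouse macrophages. Macrophages of lymph nodes, as well as those of fat, are known to carry several of these receptors, among them Marco.

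Promoter sequence was at hand for 6 of the 9 genes (7 windows of 300 bases, from 250 before to 50 after a transcription start; RefSeq, GRCm38.p6): Mrc1, Cd163, Marco, Timd4, Folr2 with 2 starts, and Mertk. The 250 bases before the start are shown for Marco and Timd4, whose levels followed each other most closely of all pairs of these receptors (r = 0.98 over 16 libraries), and for Mrc1, one of the genes that was higher in cKO cold. Capitals mark the only match found to 3 motifs searched on both strands.
Marco, chr1:120505025-120505274, minus strand: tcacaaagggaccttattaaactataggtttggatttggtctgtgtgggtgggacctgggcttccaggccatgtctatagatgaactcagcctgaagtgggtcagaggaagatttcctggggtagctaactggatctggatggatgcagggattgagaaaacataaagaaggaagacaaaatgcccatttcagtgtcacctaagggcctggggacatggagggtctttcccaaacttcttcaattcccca
Timd4, chr11:46810549-46810798, plus strand: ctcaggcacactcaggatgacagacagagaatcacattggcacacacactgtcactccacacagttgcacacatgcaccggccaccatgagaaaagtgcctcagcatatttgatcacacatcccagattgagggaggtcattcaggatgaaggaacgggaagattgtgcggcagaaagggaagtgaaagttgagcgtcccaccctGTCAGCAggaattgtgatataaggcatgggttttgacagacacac
Mrc1, chr2:14229164-14229413, plus strand: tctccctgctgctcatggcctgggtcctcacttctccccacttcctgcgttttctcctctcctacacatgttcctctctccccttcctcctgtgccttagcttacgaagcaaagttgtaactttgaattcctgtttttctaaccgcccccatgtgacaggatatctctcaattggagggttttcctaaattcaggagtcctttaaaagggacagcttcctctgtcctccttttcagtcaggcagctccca
The capitals in Timd4 are the partial recognition site of MAF factors, TGCTGAC, read on the minus strand at bases -45 to -39 from the start. That motif lies in 4.67% of 32851 promoter windows of the same length. The PU.1 motif GAGGAAGT (3.20% of promoters) and the E-box CACGTG bound by MITF and TFE factors (7.15%) had 0 matches in the 7 windows. A match is only a run of letters, and binding was not measured.

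Several facts about the libraries touch what follows. Mettl3 RNA in the libraries labelled cKO stood at 1.90 to 3.83 RPKM in inputs, against 3.66 to 5.24 RPKM in WT cold inputs, and these ranges overlapped, as did those in m6A. In footprints they stood at 8.99 and 5.22 RPKM in cKO cold against 4.60 and 4.82 RPKM in WT cold. Adipocyte RNA does not make up the whole tissue, and values per gene show no deleted exon, so the group names are those of the labels. The 18 core macrophage genes, such as Cd68, Spi1 and the C1q chains, held 1864 and 886 RPKM in sum in the cKO cold inputs, 242 and 240 RPKM in WT cold inputs, and 1213 and 1312 RPKM in WT RT inputs, so macrophage RNA was present in all inputs. The 12 lymphocyte and lymph node genes, such as Cd79a, Fcmr and Glycam1, held 8.74 and 4.65 RPKM in cKO cold inputs, 0.825 and 1.52 RPKM in WT cold inputs, and 1084 and 1062 RPKM in WT RT inputs. In the cold footprints the same 12 genes held 1286 and 416 RPKM (cKO) and 616 and 495 RPKM (WT), so for them the footprints stood apart from the inputs of the same conditions. The 10 adipocyte genes held 9214 to 13253 RPKM in the 6 inputs. Library codes of WT RT belong to a different series from those of the cold groups, and this difference and temperature cannot be told apart. Recovered reads ran from 3895031 to 8673393 in the inputs and from 4883129 to 6426541 in the m6A libraries, and were at least 1676208 to 2461267 in the footprints.

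**Figure D1:**
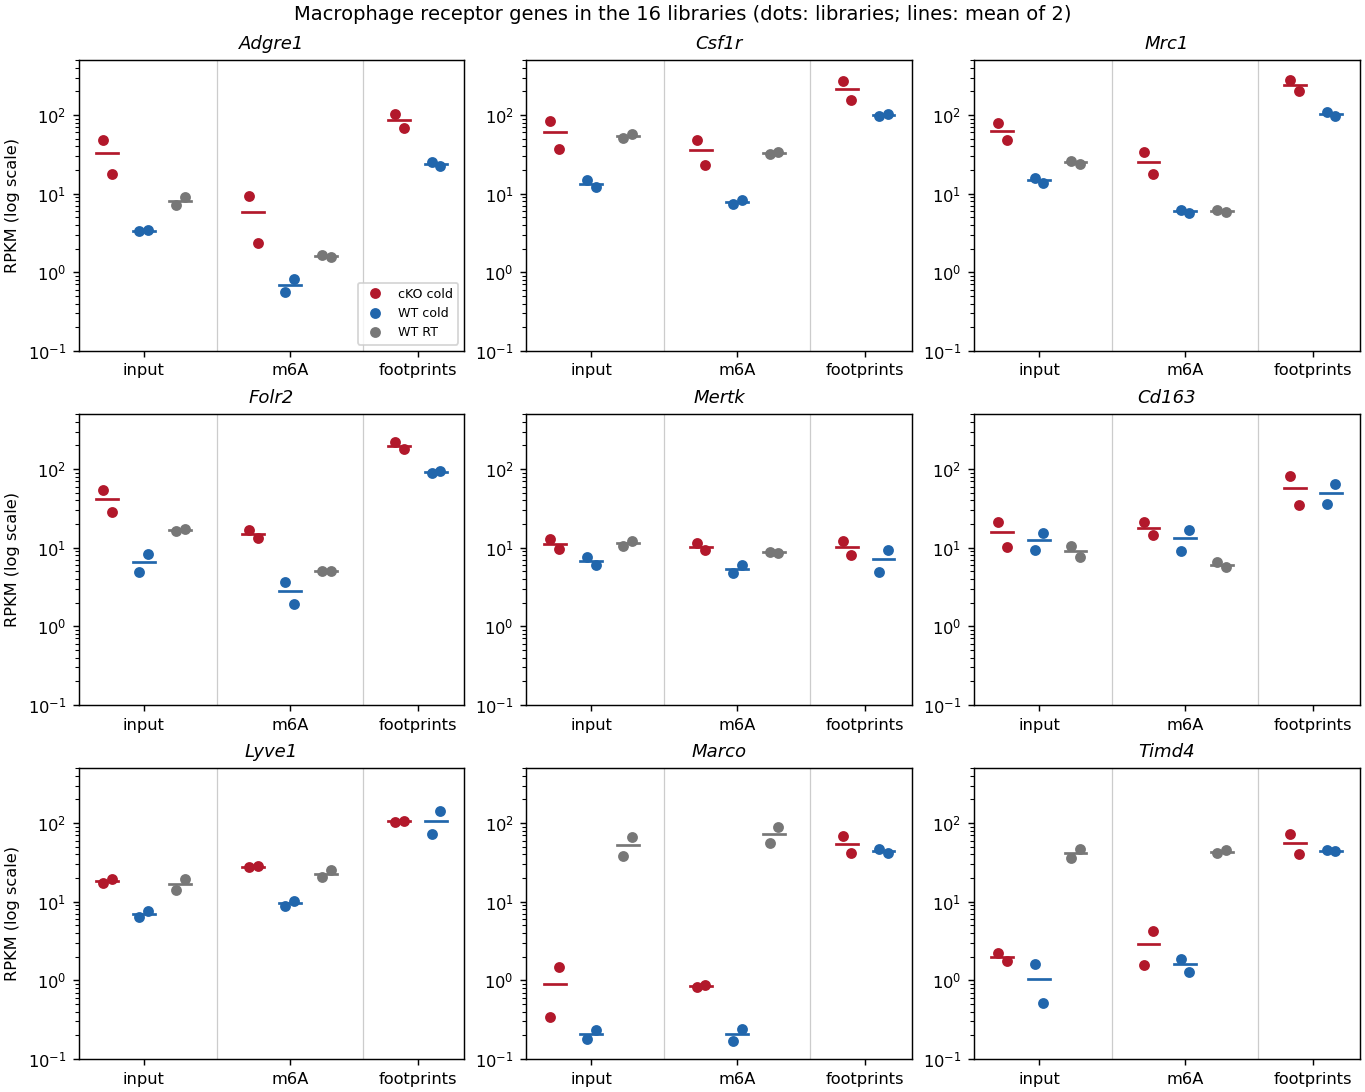
Level of each receptor gene (RPKM, log scale) in the 16 libraries, by assay and condition; dots are libraries and lines the mean of 2. Adgre1, Csf1r, Mrc1 and Folr2 are higher in both cKO cold libraries than in both WT cold libraries in every assay, and Marco and Timd4 are low in cold inputs and m6A but above 40 RPKM in cold footprints.

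The comparison of cKO cold with WT cold asks what the loss of Mettl3 from adipocytes goes with in the cold. Of the 9 receptor genes, 5 were higher in the cKO cold inputs and 0 were lower: Adgre1, Folr2, Mrc1, Csf1r and Lyve1. Over all 12667 genes tested, 23.6% were higher and 2.92% lower (limma, Benjamini-Hochberg adjusted p under 0.05). The median log2 fold change of the 9 was 1.27, beside 0.40 for all genes tested. In bulk tissue, more cells of a type and more RNA per cell cannot be told apart. Fold changes here and below are those of RPKM + 1, errors of fold changes are standard errors, and n is 2 libraries per group.

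Adgre1 (F4/80) stood at 47.8 and 17.6 RPKM in cKO cold inputs, at 3.31 and 3.40 RPKM in WT cold, and at 7.25 and 9.01 RPKM in WT RT inputs. Both cKO cold libraries were above all 4 others, and the 2 cKO libraries differed from each other far more than the libraries of the other groups did. The log2 fold change of cKO cold over WT cold was 2.79 ± 0.42 (limma adjusted p = 0.00783), the largest of the 9. It was 2.09 without cKO cold input replicate 1 and 3.49 without replicate 2, and the call held in both.

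Folr2, the folate receptor, stood at 54.5 and 28.6 RPKM in cKO cold inputs, at 4.88 and 8.39 RPKM in WT cold, and at 16.5 and 17.2 RPKM in WT RT inputs. The 3 conditions did not overlap, with cKO cold highest and WT cold lowest. Its log2 fold change of cKO cold over WT cold was 2.45 ± 0.34 (limma adjusted p = 0.00653).

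Mrc1, the mannose receptor whose promoter is shown above, stood at 78.5 and 47.4 RPKM in cKO cold inputs, at 16.02 and 13.54 RPKM in WT cold, and at 25.7 and 24.1 RPKM in WT RT inputs. Here too the order was cKO cold, WT RT, WT cold, with no overlap. Its log2 fold change of cKO cold over WT cold was 1.98 ± 0.24 (limma adjusted p = 0.00511).

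Csf1r stood at 83.0 and 36.9 RPKM in cKO cold inputs, at 14.76 and 12.03 RPKM in WT cold, and at 51.0 and 56.7 RPKM in WT RT inputs. The WT RT libraries lay between the 2 cKO cold libraries, and WT cold lay below all of them. Its log2 fold change of cKO cold over WT cold was 1.98 ± 0.34 (limma adjusted p = 0.0108). Without cKO cold input replicate 1 it was 1.40, and the call held.

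Lyve1 stood at 17.4 and 19.3 RPKM in cKO cold inputs, at 6.42 and 7.61 RPKM in WT cold, and at 14.3 and 19.4 RPKM in WT RT inputs. The cKO cold and WT RT libraries overlapped and WT cold was lower. Its log2 fold change of cKO cold over WT cold was 1.27 ± 0.20 (limma adjusted p = 0.00853). The call was lost with median-ratio scaling, which sets the typical gene to no change (0.83, limma adjusted p = 0.0546). Unlike the other receptors that were higher, Lyve1 was not higher in cKO cold replicate 1 than in replicate 2. Of 7 lymphatic endothelial genes 2 were higher in the same comparison (1 with median-ratio scaling), Pdpn at 2.17 ± 0.41 and Nrp2 at 1.04 ± 0.30. Over all genes 23.6% were higher, or 5.97% with median-ratio scaling. The summed level of the 7 was 42.5 and 28.9 RPKM in cKO cold inputs against 18.4 and 10.4 RPKM in WT cold inputs. The share of Lyve1 RNA that came from lymphatic cells was not tested.

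The other 4 receptors did not pass the test in this comparison. Mertk stood at 13.03 and 9.49 RPKM in cKO cold inputs against 7.58 and 6.00 RPKM in WT cold inputs, and the log2 fold change was 0.65 ± 0.22 (95% interval 0.13 to 1.16; limma adjusted p = 0.0664). Its groups did not overlap, but the difference was small beside those of Adgre1 and Folr2. Cd163, the haemoglobin scavenger receptor, stood at 21.3 and 10.2 RPKM in cKO cold inputs and at 9.32 and 15.4 RPKM in WT cold inputs. These ranges overlapped, and the log2 fold change was 0.28 ± 0.38 (95% interval -0.62 to 1.18; limma adjusted p = 0.59). Marco at 0.59 ± 0.37 and Timd4 at 0.60 ± 0.30 rested on 14 and 37 reads over both cKO cold inputs and on 5 and 35 reads over both WT cold inputs, so little could be detected at this depth. Leaving out WT cold input replicate 1 brought the Timd4 log2 fold change to 0.98, which passed.

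**Figure D2:**
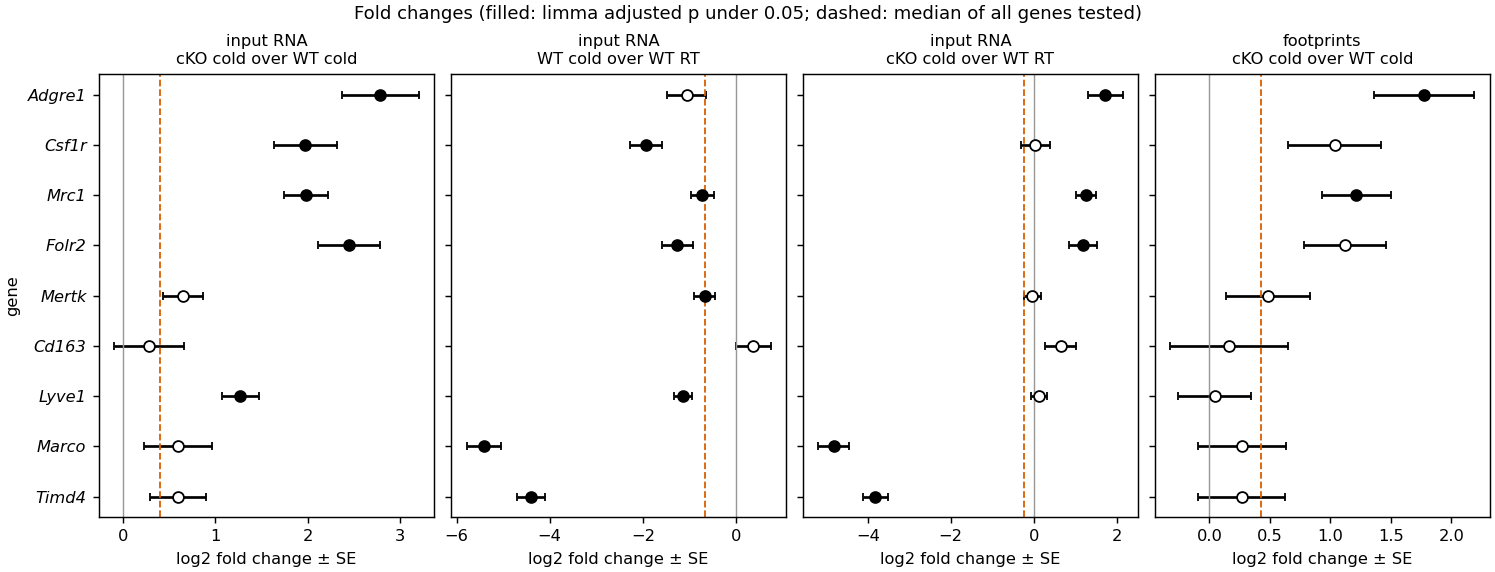
Log2 fold change of RPKM + 1 for the 9 receptor genes in 4 comparisons, with standard errors (n = 2 libraries per group); filled points passed limma's test and the dashed line is the median of all genes tested. In cKO cold over WT cold input RNA 5 points are filled, from 1.27 for Lyve1 to 2.79 for Adgre1, and in WT cold over WT RT Marco (-5.42) and Timd4 (-4.41) lie far below the other 7.

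Scaling bears on how many genes are called higher. With RPKM as deposited, 2992 genes were higher and 370 lower in cKO cold than in WT cold, and with median-ratio scaling 756 and 852. Adgre1, Folr2, Mrc1 and Csf1r kept their calls with median-ratio and with quantile scaling, so 4 of the 9 were higher with median-ratio scaling, where 5.97% of all genes were.

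Ligands of these receptors were measured in the same inputs. Of 8 ligands and bridging proteins tested, 5 were higher and 0 lower in the cKO cold inputs than in the WT cold inputs (2 higher with median-ratio scaling), with a median log2 fold change of 1.11. Over all genes 23.6% were higher and 2.92% lower, or 5.97% higher with median-ratio scaling. Csf1, the main ligand of Csf1r, stood at 36.1 and 22.3 RPKM in cKO cold, at 11.7 and 4.62 RPKM in WT cold, and at 26.5 and 21.3 RPKM in WT RT, and its log2 fold change of cKO cold over WT cold was 1.80 ± 0.40 (limma adjusted p = 0.021). Il34, its other ligand, was at 4.80 and 6.76 RPKM in cKO cold, 3.24 and 3.42 RPKM in WT cold, and 4.91 and 3.48 RPKM in WT RT, and did not pass (0.63 ± 0.24). Among partners of Mertk, Gas6 was higher by 1.49 ± 0.24 and Pros1 by 1.19 ± 0.21. Tnfsf12, the cytokine TWEAK that Cd163 has been reported to bind, was higher by 1.77 ± 0.21, and Mfge8, which bridges dying cells to integrins, by 1.03 ± 0.23. Hp, the haptoglobin that Cd163 takes up with haemoglobin, and Has2, a hyaluronan synthase, did not pass (0.58 ± 0.29 and 0.58 ± 0.28).

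Other macrophage genes moved the same way between these inputs. The counts below stand beside 23.6% of all genes higher and 2.92% lower as deposited, and 5.97% higher with median-ratio scaling. Of 17 core macrophage genes tested, 16 were higher (14 with median-ratio scaling; list median 2.05), among them the lysosomal protein Cd68 at 3.31 ± 0.18, the protease Ctss at 2.87 ± 0.43 and the pore protein Mpeg1 at 2.71 ± 0.41. Of 16 further genes of resident-type macrophages 9 were higher (7 with median-ratio scaling; list median 1.46), such as the chemokine Pf4 at 2.37 ± 0.27 and Cbr2 at 2.15 ± 0.20. Of 17 lipid-associated macrophage genes 10 were higher and 0 lower, or 7 higher and 1 lower with median-ratio scaling. Mmp12 at 3.86 ± 0.54, Atp6v0d2 at 3.52 ± 0.59 and the lipid receptor Trem2 at 3.48 ± 0.42 led this list. Of 11 macrophage transcription factors 9 were higher (4 with median-ratio scaling), led by Spi1, which encodes PU.1, at 2.53 ± 0.24. Of 11 monocyte genes 7 were higher (4 with median-ratio scaling), led by Chil3 at 2.56 ± 0.56, and of 18 genes related by family to the 9 receptors 12 were higher (7 with median-ratio scaling), led by Mrc2, a paralog of Mrc1, at 2.49 ± 0.21. Of 5 genes of ectodomain shedding, 3 were higher as deposited (list median 0.58) and 1 with median-ratio scaling (list median 0.10). As deposited, the membrane protease Adam8 was higher by 3.87 ± 0.29, and Adam17, which sheds ectodomains of several receptors, by 1.04 ± 0.20. Of 7 neutrophil and mast cell genes 4 were higher (2 with median-ratio scaling): the mast cell proteases Cpa3 at 2.84 ± 0.58, Cma1 at 2.60 ± 0.33 and Mcpt4 at 2.37 ± 0.63, and the neutrophil receptor Csf3r at 0.90 ± 0.22. The summed level of 8 such genes was 86.3 and 56.8 RPKM in cKO cold inputs against 17.5 and 13.9 RPKM in WT cold inputs, so this list was higher together with the receptors, and its part in the receptor levels was not tested. Of 12 lymphocyte and lymph node genes 1 was higher, Cd79b (0.95 ± 0.27; 0 with median-ratio scaling), and of 8 dendritic cell genes 1, Clec9a (1.10 ± 0.23). Of 10 adipocyte genes 4 were lower and 1 was higher (5 lower and 0 higher with median-ratio scaling).

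Set against the summed core macrophage genes, the 9 receptors were not in a fixed ratio. Per 100 RPKM of core macrophage genes, Csf1r held 4.45 and 4.16 RPKM in cKO cold inputs, 6.11 and 5.01 RPKM in WT cold inputs, and 4.20 and 4.32 RPKM in WT RT inputs. Cd163 held 1.15 and 1.15 in cKO cold, 3.86 and 6.42 in WT cold, and 0.876 and 0.586 in WT RT. Mertk held 0.699 and 1.07 in cKO cold, 3.14 and 2.50 in WT cold, and 0.868 and 0.936 in WT RT. Lyve1 held 0.933 and 2.17 in cKO cold, 2.66 and 3.17 in WT cold, and 1.18 and 1.48 in WT RT. Mrc1 held 4.21 and 5.35 in cKO cold, 6.64 and 5.64 in WT cold, and 2.12 and 1.84 in WT RT. For these 5 receptors both WT cold libraries were thus above the other 4 inputs on this scale, by the widest margin for Cd163 and Mertk. Adgre1 held 2.56 and 1.99 in cKO cold, 1.37 and 1.42 in WT cold, and 0.598 and 0.687 in WT RT, with no overlap. These ratios are a description and were not tested.

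**Figure D3:**
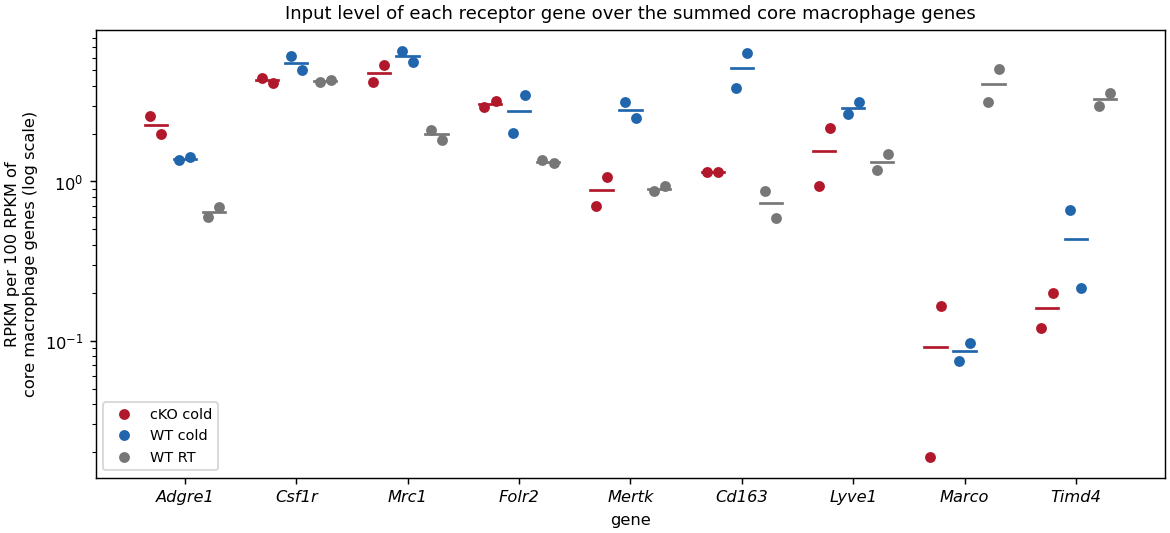
Input RPKM of each receptor gene per 100 RPKM of 18 summed core macrophage genes (log scale), by condition; dots are libraries and lines the mean of 2. Csf1r stays between 4.16 and 6.11 in all 6 inputs; both WT cold inputs lie highest for Csf1r, Mrc1, Lyve1, Cd163 and Mertk, and both WT RT inputs for Marco and Timd4.

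The comparison of WT cold with WT RT asks how the tissue differed after 7 days of cold. Of the 9 receptors 7 were lower in the WT cold inputs and 0 were higher, where 51.2% of all 12667 genes tested were lower and 6.52% higher (limma adjusted p under 0.05). The median log2 fold change was -1.14 for the 9 and -0.67 for all genes. With median-ratio scaling, which moved the calls over all genes from 826 higher and 6488 lower to 2376 higher and 2592 lower, 3 of the 9 were still lower, where 20.5% of all genes were: Marco, Timd4 and Csf1r. Quantile scaling left the same count of 3.

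Marco, the scavenger receptor of particles, stood in the inputs at 0.180 and 0.233 RPKM in WT cold and at 38.2 and 66.7 RPKM in WT RT inputs, from 3 and 2 reads against 570 and 950 reads. The groups were far apart, and the cKO cold inputs, at 0.345 and 1.47 RPKM, lay with WT cold. The log2 fold change of WT cold over WT RT was -5.42 ± 0.37 (limma adjusted p = 0.000112). Timd4, the phosphatidylserine receptor, stood at 1.59 and 0.517 RPKM in WT cold and at 35.9 and 47.2 RPKM in WT RT inputs, and its log2 fold change was -4.41 ± 0.30 (limma adjusted p = 0.000112). The cKO cold inputs held 2.24 and 1.77 RPKM of Timd4, above WT cold and far below WT RT.

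Lymph node genes moved with Marco and Timd4. All 12 lymphocyte and lymph node genes were lower in the WT cold inputs (list median -5.85), led by Glycam1 of high endothelial venules at -8.09 ± 0.19, the B cell receptor chain Cd79a at -7.82 ± 0.33 and the IgM receptor Fcmr at -6.71 ± 0.22. All 8 dendritic cell genes were lower as well (5 with median-ratio scaling), and 6 of 7 lymphatic endothelial genes, with Ccl21a at -7.40 ± 0.29. The genes most like Marco over the 16 libraries, among 12320 searched, were Fcmr and Scml4 (r = 0.99 for both), and those most like Timd4 were Cd79b and Arid3b (r = 0.99 for both). The likeness was computed on log2(RPKM + 1) centred within each assay, and the points share libraries, conditions and depth. Their closest genes thus included lymphocyte genes. The core macrophage genes were lower in WT cold as well, by a smaller list median (-2.02). In sum they held 242 and 240 RPKM in WT cold inputs against 1213 and 1312 RPKM in WT RT inputs. In the cKO cold inputs, where Marco and Timd4 were also low, they held 1864 and 886 RPKM. The part of lymph node RNA in the Marco and Timd4 levels was not tested.

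Csf1r was lower in the WT cold inputs by 1.93 ± 0.34 on the log2 scale (limma adjusted p = 0.00354). Over the 16 libraries its r was 0.50 with Marco and 0.52 with Timd4. The part of lymph node RNA in the Csf1r level of WT RT was not tested either. For the remaining 4 calls the scaling mattered: Folr2 at -1.26 ± 0.34, Lyve1 at -1.14 ± 0.20, Mrc1 at -0.72 ± 0.24 and Mertk at -0.67 ± 0.22 lost them with median-ratio scaling (-0.58, -0.46, -0.0049 and -0.0015). With quantile scaling the Mertk difference changed sign, to 0.11. Mrc1 and Mertk lay at the median of all genes. Adgre1 was not called (-1.06 ± 0.42, limma adjusted p = 0.0638). Cd163 was not called either, at 9.32 and 15.4 RPKM in WT cold inputs and 10.6 and 7.69 RPKM in WT RT inputs (0.37 ± 0.38, limma adjusted p = 0.423). Cd163 was the only one of the 9 with a higher mean in the WT cold than in the WT RT inputs, and its libraries overlapped. Without WT RT input replicate 1 the calls over the 9 numbered 4, and without WT RT input replicate 2 also 4.

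Lists of genes around the receptors are read here against the 51.2% of all genes that were lower in WT cold, or 20.5% with median-ratio scaling. The part of lymph node RNA of the WT RT inputs in the list differences was not tested. Of 8 ligands and bridging proteins 7 were lower in WT cold (2 with median-ratio scaling), with Mfge8 at -1.76 ± 0.23, Csf1 at -1.55 ± 0.40, Tnfsf12 at -1.55 ± 0.21 and Gas6 at -1.39 ± 0.24, and Il34 did not pass (-0.25 ± 0.24). Of 17 core macrophage genes 14 were lower (12 with median-ratio scaling; list median -2.02), with Laptm5 at -4.04 ± 0.36. Lymphocytes also express Laptm5. Of 11 transcription factors 6 were lower (5 with median-ratio scaling), with Irf8 at -4.30 ± 0.27 and Spi1 at -3.10 ± 0.24. Their share was near that of all genes as deposited and above it with median-ratio scaling. Of 16 other resident-type genes 7 were lower (4 with median-ratio scaling), a share no higher than that of all genes as deposited. Among these were Ccl8 at -3.32 ± 0.38 and the sialoadhesin gene Siglec1 at -3.11 ± 0.26. Of 17 lipid-associated genes 5 were higher and 4 lower, and 8 were higher and 2 lower with median-ratio scaling. In sum they held 3851 and 4160 RPKM in WT cold inputs and 2095 and 2232 RPKM in WT RT inputs. The core macrophage genes held 242 and 240 RPKM in the WT cold inputs. The share of the RNA of these 17 genes that came from macrophages was not tested. Of 11 monocyte genes 8 were lower (4 with median-ratio scaling), and of 7 neutrophil and mast cell genes 5 (4 with median-ratio scaling). The family relatives gave 13 lower of 18 (8 with median-ratio scaling), with the scavenger receptor Stab2 at -3.50 ± 0.28 and the mannose receptor family member Ly75 at -2.86 ± 0.20.

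**Figure D4:**
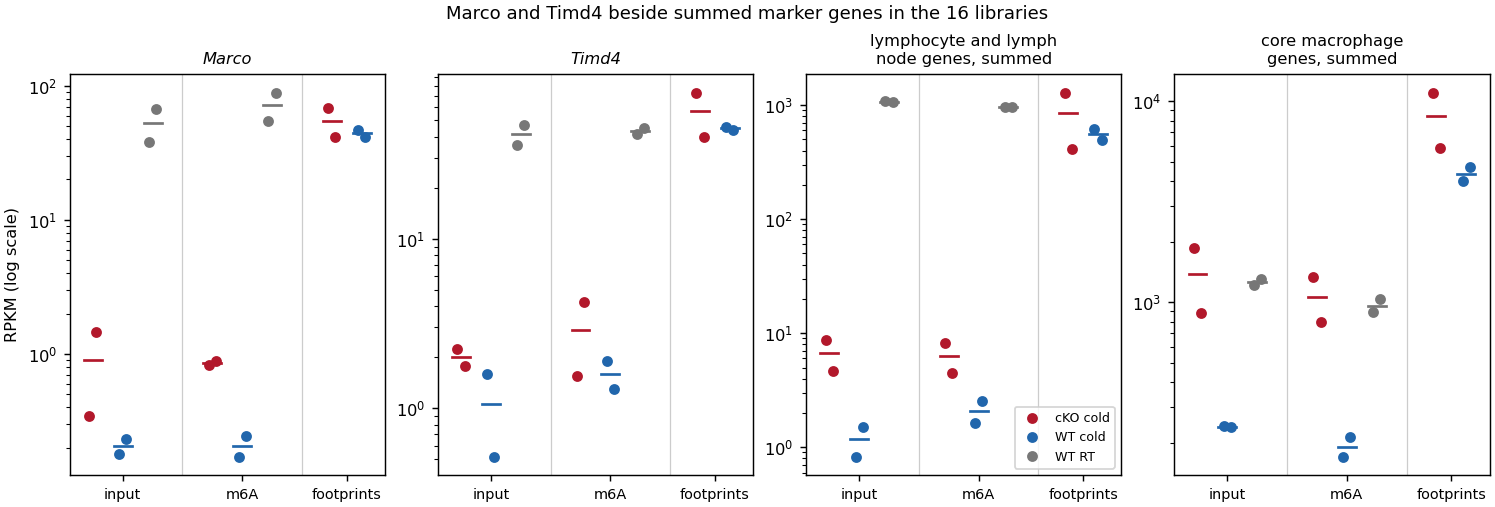
Marco, Timd4, 12 summed lymphocyte and lymph node genes and 18 summed core macrophage genes (RPKM, log scale) in the 16 libraries; dots are libraries and lines the mean of 2. Marco, Timd4 and the lymph node sum are high in the WT RT inputs and m6A and in all 4 cold footprints, and low in cold inputs and m6A; the core macrophage sum is 240 RPKM or more in every input.

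The inputs of cKO cold and WT RT differ in genotype, temperature and library code series at once. Against WT RT, 3 of the 9 receptors were higher in cKO cold, where 8.38% of all genes were, and 2 were lower, where 24.7% of all genes were. Adgre1 was higher by 1.73 ± 0.42, Mrc1 by 1.26 ± 0.24 and Folr2 by 1.18 ± 0.34 (limma adjusted p = 0.0204, 0.00878 and 0.0357). All 3 calls were lost when either of the WT RT input libraries was left out. Marco at -4.82 ± 0.37 and Timd4 at -3.81 ± 0.30 were lower. Csf1r (0.04 ± 0.34), Lyve1 (0.13 ± 0.20), Mertk (-0.03 ± 0.22) and Cd163 (0.65 ± 0.38) did not pass; the 95% interval was -0.78 to 0.86 for Csf1r and -0.24 to 1.55 for Cd163. This comparison shares libraries with the other 2, so its values are not separate evidence.

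Capture with the m6A antibody asks which RNAs carry the mark. In all 6 pairs of libraries, levels in the antibody fraction were below those in the input for Adgre1, Mrc1, Folr2, Csf1r and Mertk. For Lyve1 they were above the input in all 6. The median log2 fold change of m6A over input for all genes tested was -0.30 in cKO cold, -0.11 in WT cold and -0.25 in WT RT. A value below 0 was thus common. In cKO cold 3 of the 9 receptors were lower in the m6A libraries than in the inputs and 1 was higher, where 35.2% and 11.4% of 13062 genes were. In WT cold 2 were lower and 0 higher (25.6% and 13.7% of all genes), and in WT RT 3 were lower and 0 higher (34.6% of all genes lower, and 50.6% called in either direction). Replicate numbers pair the input and m6A libraries of a condition, and with these pairs as a replicate block the calls were 4 lower and 1 higher in cKO cold (42.2% and 16.1% of all genes), 4 lower and 1 higher in WT cold (31.9% and 19.4%), and 5 lower and 1 higher in WT RT (40.6% and 21.3%).

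Adgre1 had the lowest mean log2 ratio of the 9 in each condition when the ratio was taken without the added 1 RPKM; with it, Mrc1 was lower in WT RT. The Adgre1 m6A over input RPKM ratio was 0.193 and 0.136 in cKO cold, 0.169 and 0.240 in WT cold, and 0.231 and 0.175 in WT RT. The conditions overlapped, and the highest of the 6 ratios was 0.240. The log2 fold change of m6A over input was -2.36 ± 0.50 in cKO cold, -1.37 ± 0.50 in WT cold and -1.79 ± 0.50 in WT RT (limma adjusted p = 0.00326, 0.0512 and 0.0128), and with the replicate block the WT cold value passed (limma adjusted p = 0.000202). The added 1 RPKM shrinks the WT cold value most, since both WT cold m6A libraries were under 1 RPKM (28 reads in all).

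Mrc1 gave ratios of 0.429 and 0.370 in cKO cold, 0.392 and 0.421 in WT cold, and 0.240 and 0.242 in WT RT. The 4 cold ratios lay above both WT RT ratios. The log2 fold change was -1.29 ± 0.29 in cKO cold, -1.17 ± 0.29 in WT cold and -1.89 ± 0.29 in WT RT (limma adjusted p = 0.00423, 0.00846 and 0.000419). Folr2 gave ratios of 0.304 and 0.460 in cKO cold, 0.756 and 0.231 in WT cold, and 0.308 and 0.297 in WT RT, and its log2 fold changes were -1.36, -1.0015 and -1.55, each ± 0.33. The WT cold call of Folr2 (limma adjusted p = 0.0327) rested on 42 reads in the m6A libraries and was lost without WT cold m6A replicate 2 or WT cold input replicate 2.

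Csf1r gave ratios of 0.586 and 0.634 in cKO cold, 0.503 and 0.696 in WT cold, and 0.623 and 0.593 in WT RT. Its log2 fold change was -0.70 ± 0.37, -0.69 ± 0.37 and -0.70 ± 0.37 in the 3 conditions, which did not pass (limma adjusted p = 0.147, 0.169 and 0.136) but did with the replicate block (0.00101, 0.00125 and 0.000895). Among all genes tested these values lay at percentiles 30.7, 22.5 and 30.0. Lyve1 was the only receptor with a ratio above 1 in all 6 pairs of libraries, at 1.58 and 1.47 in cKO cold, 1.39 and 1.33 in WT cold, and 1.44 and 1.30 in WT RT. It passed in cKO cold (0.58 ± 0.17, limma adjusted p = 0.0188), and in WT cold (0.40 ± 0.17) and WT RT (0.43 ± 0.17) with the block alone (limma adjusted p = 0.0119 and 0.00669). Cd163 gave ratios of 0.987 and 1.41 in cKO cold, 0.986 and 1.10 in WT cold, and 0.610 and 0.731 in WT RT, and passed only in WT RT with the block (-0.51, limma adjusted p = 0.0142). Mertk ratios ran from 0.620 to 0.994 and did not pass in any condition. Marco in WT RT, its only condition with many reads, gave 1.44 and 1.33, and Timd4 gave 1.16 and 0.955 there, and neither passed.

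**Figure D5:**
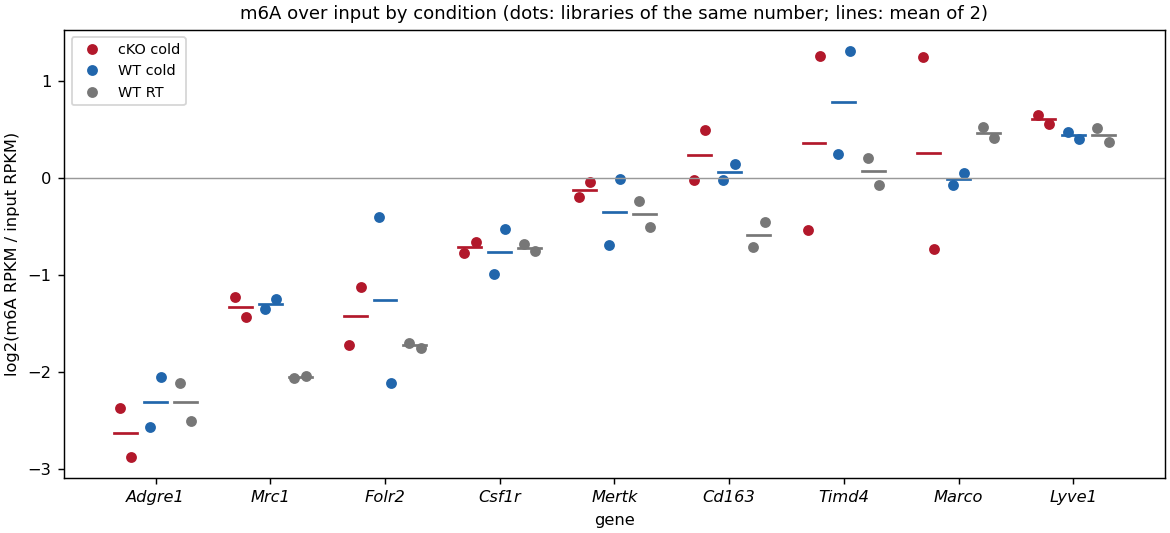
Log2 ratio of m6A RPKM to input RPKM for each receptor gene in 3 conditions; dots are libraries of the same number and lines the mean of 2. All 6 ratios of Adgre1, Mrc1, Folr2, Csf1r and Mertk lie below 0 and all 6 of Lyve1 above 0, with the conditions overlapping for Adgre1.

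The change of m6A over input between conditions was tested as an interaction. For 0 of the 9 receptors did it pass in cKO cold over WT cold, where 0.00% of all genes passed (1311 of 13062 at an unadjusted p under 0.05), or in WT cold over WT RT, where 0.0612% did (1486). With limma's voom on recovered reads 0 of 9 passed as well in both. The largest changes were -0.99 ± 0.70 for Adgre1 in cKO cold over WT cold and 0.72 ± 0.40 for Mrc1 in WT cold over WT RT (limma adjusted p = 0.712 and 0.574). With the replicate block these gave limma adjusted p = 0.0626 and 0.0513, and again 0 of the 9 passed, where 3.10% and 2.07% of all genes did. For Adgre1 the added 1 RPKM shrinks the WT cold ratio most and so widens this change. Without it the log2 ratios overlapped, at -2.37 and -2.88 in cKO cold and -2.57 and -2.06 in WT cold. For Csf1r the change was -0.01 ± 0.52 in cKO cold over WT cold.

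Ribosome footprints compare the RNA fragments held by ribosomes, for cKO cold and WT cold. Of the 9 receptors 2 were higher in cKO cold footprints and 0 were lower, where 5.61% of 12763 genes were higher and 1.54% lower (limma adjusted p under 0.05). Median-ratio scaling turned the calls over all genes from 716 higher and 196 lower into 120 and 355. Adgre1 stood at 103 and 68.2 RPKM in cKO cold footprints against 24.9 and 22.7 RPKM in WT cold footprints, with no overlap (1.78 ± 0.41, limma adjusted p = 0.0413). Mrc1 stood at 280 and 202 RPKM in cKO cold against 108 and 96.1 RPKM in WT cold, again with no overlap (1.21 ± 0.29, limma adjusted p = 0.0423). Both calls were lost with median-ratio scaling (1.29 and 0.72) and with quantile scaling.

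Folr2 stood at 218 and 181 RPKM in cKO cold footprints against 88.7 and 93.3 RPKM in WT cold footprints, and Csf1r at 268 and 158 RPKM against 97.3 and 102 RPKM. Neither pair of groups overlapped, and neither passed (1.12 ± 0.34, limma adjusted p = 0.0739, and 1.03 ± 0.38, limma adjusted p = 0.115). Lyve1 stood at 105 and 106 RPKM in cKO cold footprints and at 73.4 and 141 RPKM in WT cold footprints (0.04 ± 0.30), so the groups overlapped, where the inputs had not. The 7 lymphatic endothelial genes held 365 and 175 RPKM in sum in cKO cold footprints and 153 and 155 RPKM in WT cold footprints. In the cold inputs they held 10.4 to 42.5 RPKM. Their part in the Lyve1 footprints was not tested. Cd163 at 0.16 ± 0.49 and Mertk at 0.48 ± 0.35 did not pass, and their footprints overlapped.

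The level of footprints over that of input cannot be read as a rate, because the 2 assays share no length scale, but genes can be ranked by it within a library. Marco had 68.4 and 41.7 RPKM in cKO cold footprints and 47.1 and 41.5 RPKM in WT cold footprints, which is 198 and 28.4 times its input in cKO cold and 262 and 178 times its input in WT cold. Timd4 had 72.9 and 40.1 RPKM in cKO cold and 45.9 and 43.8 RPKM in WT cold, or 32.5 and 22.6 times its input in cKO cold and 28.8 and 84.8 times in WT cold. On log2(RPKM + 1), Marco ranked 41 and 117 in cKO cold and 40 and 55 in WT cold from the top of 12763 genes, and Timd4 ranked 133 and 164 in cKO cold and 157 and 71 in WT cold. For the other 7 receptors the ratio ran from 0.655 for Mertk to 18.6 for Lyve1. The lymphocyte and lymph node genes, near 0 in the cold inputs, were high in the same 4 footprint libraries, as given above, and their part in the Marco and Timd4 footprints was not tested. Mertk had the lowest ratios, at 0.935 and 0.856 in cKO cold and 0.655 and 1.55 in WT cold, which places it below the median gene in all 4 pairs of libraries.

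The change of footprints over input between cKO cold and WT cold passed for 0 of the 9 receptors and for 0.00% of all genes (limma; 459 of 12763 at an unadjusted p under 0.05). All 9 estimates were below 0, with a median of -0.77 beside 0.00 for all genes. Folr2 at -1.33 ± 0.48 and Lyve1 at -1.23 ± 0.43 had the largest (limma adjusted p = 0.9996 for both), and Adgre1 stood at -1.02 ± 0.59. The 17 core macrophage genes tested gave a median of -1.12, and 0 of them passed. Same-numbered input and footprint libraries of a condition also deviated together, and with these pairs as a replicate block 0 of the 9 and 0.00% of all genes passed again (761 of 12763 at an unadjusted p under 0.05; limma adjusted p of the 9 from 0.741 to 0.983). The ratio of footprint to input RPKM was 4.00 and 6.33 in cKO cold and 18.2 and 11.1 in WT cold for Folr2, and 2.16 and 3.87 in cKO cold and 7.53 and 6.68 in WT cold for Adgre1. Csf1r, Mrc1, Lyve1 and Cd163 also had both cKO cold ratios below both WT cold ratios. All 9 estimates share the same 8 libraries. In these libraries the lymphocyte and lymph node genes were high in the footprints and near 0 in the inputs. The part of this difference in the estimates was not tested.

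The patterns of the receptors over the 16 libraries, on log2(RPKM + 1) centred within each assay, are given as a description, since the points share conditions and depth. Adgre1, Mrc1 and Folr2 were alike, with r of 0.93 to 0.94 between each pair. Csf1r was most like the core macrophage protease Ctss (r = 0.99) and the Mertk relative Axl (r = 0.99). The 2 genes most like Adgre1 were Anpep and Ctsk (r = 0.97 for both). For Mrc1 they were F13a1 (r = 0.98) and the mast cell protease Cma1 (r = 0.97), and for Folr2 Myof and Sdk1 (r = 0.96 for both). For Lyve1 they were the haem oxygenase gene Hmox1 (r = 0.94) and Tgfb1i1 (r = 0.93), and for Mertk Reck (r = 0.96) and Nbl1 (r = 0.93). Cd163 was the least like the rest, with r of -0.62 to 0.54 with the other 8. Its 2 closest genes were Pet100 (r = 0.89) and Lamp2 (r = 0.86). In input RNA the order of levels, per length of transcript, was led by Mrc1 and Csf1r in cKO cold (62.95 ± 21.95 and 59.97 ± 32.60 RPKM, SD) and in WT cold (14.8 ± 1.76 and 13.4 ± 1.93 RPKM), where neighbours did not differ beyond their spread. In WT RT, Csf1r (53.9 ± 4.04 RPKM), Marco (52.4 ± 20.1 RPKM) and Timd4 (41.6 ± 7.95 RPKM) came first and overlapped, and Adgre1 (8.13 ± 1.24 RPKM) and Cd163 (9.16 ± 2.08 RPKM) came last.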

How the data were processed

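RPKM values for 17883 genes in 16 libraries came from 1 matrix deposited by the authors. Per the submitters' processing notes, HISAT2 was used with mm10; the counting tool and annotation are not given in the sources used here. RNA was extracted with Trizol and libraries made with a small RNA kit, per the labels' protocols. All value columns were used. A reference table held 17871 of the gene IDs, which also restored 25 symbols garbled into dates. Reads were recovered from the RPKM steps: 17883 genes (100%) were whole within 0.001 read plus 3e-08 of the reads. Of 200 genes with scrambled values 0 were whole in input and m6A libraries and 1 in footprints. Footprint reads are known up to a common factor, so they are lower bounds. Replicates correlated across genes at r of 0.968 to 0.992. The variance between them was 4.50 to 17.4 times that of counting error (chi-square per degree of freedom), which is a lower bound in the footprints.

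limma 3.58.1 (R 4.3.3; trend, two-sided) was run on log2(RPKM + 1). Genes needed 1 RPKM or more in 2 or more fitted libraries, with Benjamini-Hochberg adjustment over all genes and a threshold of 0.05. The 6 inputs, the 12 input and m6A libraries, and the 8 cold input and footprint libraries were each fitted together, with 3, 6 and 4 residual degrees of freedom. The test was checked on simulated data. Deviations from group means over 9682 genes correlated between same-numbered input and m6A libraries at 0.47 (cKO cold), 0.63 (WT cold) and 0.29 (WT RT), between input and footprint libraries at 0.30 (cKO cold) and 0.32 (WT cold), and between conditions at -0.09 to 0.08, so same-numbered libraries of a condition were taken as pairs, which the data show and the labels do not state. All 9 receptors are named throughout, with up to 3 called genes of largest change per list, all ligands, and the 2 genes most like each receptor. The receptors and the 13 lists were chosen with earlier results of these data known. Alternatives were a pseudocount of 0.1 RPKM, no filter, median-ratio and quantile scaling, 1 fit of all libraries, a replicate block, each library left out and, chosen after seeing the data, limma's voom on recovered reads. Python 3.11.15, numpy 2.4.6, pandas and matplotlib 3.10.9 did the rest.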

Additional observations from a re-analysis of the deposited data

How the results depend on the processing

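Of the member results recomputed under alternatives, 1363 of 1458 stayed on the same side of the threshold, 70 lost a call, 24 gained one, and 1 reversed: Mertk in WT cold over WT RT input turned to 0.1136 with quantile scaling. Among the 1363 were 100 that changed sign without being called in either setting. The counts of receptors called in cKO cold over WT cold input stayed within 1.5 times under every alternative run. In WT cold over WT RT input the count of 7 was 3 with median-ratio and with quantile scaling, and 4 to 8 without 1 library. In cKO cold over WT RT input the count of 5 was 2 to 5 without 1 library. For m6A over input, the count of 4 in cKO cold was 2 to 5 without 1 library. The count of 2 in WT cold was 1 with no filter, 1 with voom on recovered reads, 5 with the replicate block, and 1 to 3 without 1 library. In WT RT it was 6 with the replicate block, against 3. In footprints the count of 2 was 0 with a pseudocount of 0.1 RPKM, with no filter, with median-ratio scaling and with quantile scaling, and 0 to 1 without 1 library. The block by number left the input counts at 5, 7 and 5 and changed no call among them. Count-model tests planned on recovered reads were not run, because the deposited unit is RPKM; voom took their place for input and m6A. The causes were not tested, beyond fewer libraries where 1 was left out.

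With 2 libraries a group, 1 library can decide a value. Marco and Timd4 rest on 2 to 30 reads per cold input, and Adgre1 and Folr2 on 28 and 42 reads over the WT cold m6A libraries. Replicate 1 of the cKO cold inputs was above replicate 2 for 7 of the 9 receptors and for the core macrophage sum.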
